A study of Arabidopsis thaliana with 3 samples.

Results

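Chromatin accessibility was examined at 9 genes through which Arabidopsis roots take up nitrate, reduce it and respond to it. They were chosen by name, not by any measured value, from the 27444 protein-coding genes of the nuclear chromosomes. Earlier results of these data were known when the choice was made. NRT1.1 (AT1G12110), NRT2.1 (AT1G08090) and NRT2.2 (AT1G08100) are nitrate transporters, and NRT3.1 (AT5G50200) is the partner protein of the NRT2 transporters. NIA1 (AT1G77760) and NIA2 (AT1G37130) are the nitrate reductase genes, and NIR1 (AT2G15620) codes for nitrite reductase. NLP7 (AT4G24020) and ANR1 (AT2G14210) code for transcription factors. All 9 matched a protein-coding entry of the RefSeq annotation, where NRT3.1 is listed as WR3 and ANR1 as AGL44. The series held 3 ATAC-seq libraries of 1 group, numbered 1 to 3 and treated as replicates. The study calls them biological repeats, and its supplement shows that they started from unequal amounts of nuclei, so each SD below also holds that difference. The nuclei came from whole roots of transgenic Col-0 seedlings at 14 days of age. They were purified by INTACT, in which tagged and biotinylated nuclei are captured on streptavidin. The tag was expressed from a single plasmid under the constitutive 35S promoter, so the nuclei are those of the root as a whole and not of 1 cell type, and several independent transformants were raised. The seedlings grew on diluted Murashige and Skoog medium, which supplies both nitrate and ammonium. No library with another nitrogen supply was compared, so the values describe 1 growth condition.

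Nitrate enters root cells through a low-affinity system and a high-affinity system. NRT1.1 serves both and also senses nitrate, while NRT2.1 carries most of the inducible high-affinity uptake and needs NRT3.1 to reach the plasma membrane. Inside the cell nitrate reductase makes nitrite in the cytosol, and nitrite reductase makes ammonium from it in the plastid. NLP7 is a master regulator of the early transcriptional response to nitrate, and it binds the nitrate-responsive cis-element, a sequence first described in the NIR1 gene. ANR1 is a MADS-box factor that promotes lateral root growth in nitrate-rich patches. ATAC-seq reports where the transposase Tn5 can reach the DNA. It does not report how strongly a gene is transcribed.

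The libraries held an estimated 9850039, 10223285 and 18130442 reads, or 12.96, 13.60 and 23.88 counts per window of 100 bp. Signal is given below as the fold of this library mean, over windows whose centre lies in the stretch described, with the SD over n = 3 libraries. Library 2 was the highest at promoters in general. The median upstream promoter, the 400 bp before the annotated gene start, stood at 1.27, 1.49 and 1.28 over all protein-coding genes. In the text an accessible site is a peak of the authors' lists, which held 26404, 36033 and 34828 peaks, and a shared site is one that overlapped across all 3 libraries after merging, of which the genome had 20186. Of 10 root marker genes 6 had a shared site in their gene region and of 10 shoot and flower marker genes 4, where 68.4% of all protein-coding genes had one. The median upstream promoter signal was 1.39 ± 0.045 against 0.742 ± 0.042 (SD, n = 3) in the same order. In bulk nuclei a site open in fewer cells and a site less open in each cell cannot be told apart, and this holds for every value below.

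The upstream promoters of the 9 genes ranged from a mean signal of 0.811 to one of 4.29, from under the genome mean to among the highest in the genome. By this measure the regulators were at the top. Over the 400 bp before the coding start their means were below those of the enzymes. There NIA1 had 2.74, NIR1 2.61, NIA2 2.50, NLP7 2.47 and ANR1 2.09. The values that follow are those before the gene start. ANR1 had 4.20, 5.03 and 3.65 in libraries 1, 2 and 3 (mean 4.29 ± 0.70), which put it at the 99.1 percentile of all protein-coding genes. NLP7 followed with 2.90, 3.46 and 2.64 (mean 3.00 ± 0.42). The assimilation enzymes spread widely. NIA1 had 2.45, 3.11 and 2.23 (mean 2.60 ± 0.46), NIR1 had 1.81, 2.73 and 1.63 (mean 2.05 ± 0.59), and NIA2 had 1.42, 1.53 and 1.18 (mean 1.38 ± 0.18). Of the transport genes, NRT1.1 and NRT2.1 lay between NIR1 and NIA2 by their means. NRT1.1 had 1.55, 2.07 and 1.62 (mean 1.75 ± 0.28) and NRT2.1 had 1.45, 1.83 and 1.21 (mean 1.50 ± 0.32). NRT3.1 with 0.940, 0.869 and 0.793 (mean 0.867 ± 0.073) and NRT2.2 with 0.689, 0.924 and 0.819 (mean 0.811 ± 0.117) were under the genome mean in every library. Library 2 was the highest of the libraries for every gene but NRT3.1. The values rested on 22.8 estimated reads for NRT2.2 in library 1, the fewest, and on 222.3 for ANR1 in library 3, the most. For NRT2.2 in library 1 the approximate Poisson interval (95%) ran from 0.436 to 1.04 and for ANR1 in library 3 from 3.19 to 4.16. These intervals take the estimated reads as counts and cover counting error only.

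**Figure D1:**
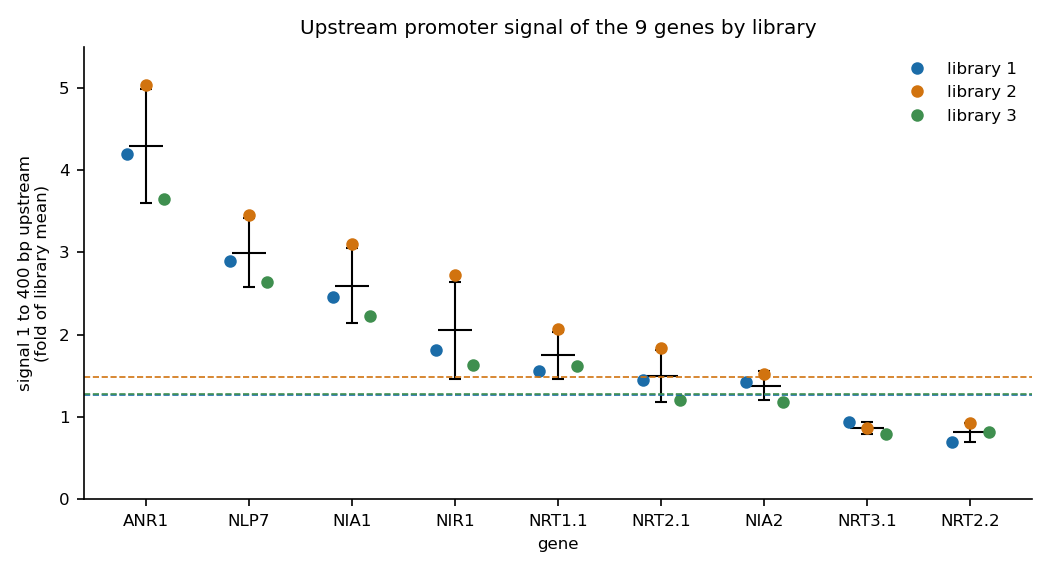
Signal over the 400 bp upstream of the annotated start of each gene (fold of the library mean, linear axis). Coloured points are the 3 libraries, black bars the mean ± SD (n = 3) and dashed lines the median of all protein-coding genes in each library. ANR1 lies between 3.65 and 5.03, while NRT3.1 and NRT2.2 stay under 1 and under the median of all genes in every library.

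Neighbours in this order were compared within each library, which removes the effect of depth. The order was taken from the means of these same libraries, so the direction of each pair was not an independent outcome. NRT2.1 and NIA2 differed by less than the spread of their ratio (log2 ratio 0.11 ± 0.14). NRT3.1 and NRT2.2 also did (0.10 ± 0.30), with NRT3.1 the higher in 1 library of 3. The remaining 6 pairs of neighbours kept 1 order in all 3 libraries with a mean log2 ratio beyond its SD, from 0.21 for NIR1 over NRT1.1 and for NLP7 over NIA1 to 0.66 for NIA2 over NRT3.1. NIR1 over NRT1.1 was close to the limit, with log2 ratios of 0.22, 0.39 and 0.0047. An exact sign-flip test over 3 libraries cannot give a two-sided p under 0.25, so no order of these genes passed a threshold of 0.05. The median of the 9 genes was 1.75 ± 0.28 against 1.34 ± 0.125 for all protein-coding genes, and their median percentile was 65.7 ± 3.31.

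The level at the upstream promoter did not describe these genes fully, since several carried their signal farther upstream or past the gene start. Signal was therefore ranked in 4 stretches of each gene against the same stretch of all protein-coding genes. From 1001 to 3000 bp upstream, NIR1 stood at the 98.5 percentile with 2.79, 3.50 and 2.34 (mean 2.87 ± 0.58), and NRT1.1 at 96.2 with 2.23, 2.88 and 2.14 (mean 2.42 ± 0.40). The median gene had 1.03 ± 0.040 there, below each library of both genes. In the first 400 transcribed bp the order was another one. NIA2 with 3.04, 2.88 and 2.39 and NIR1 with 2.43, 3.13 and 2.69 both ranked at the 94.9 percentile, followed by NLP7 at 91.9 and NRT3.1 at 90.4. NRT3.1 thus went from 0.867 ± 0.073 before its start to 2.40 ± 0.27 after it, and the libraries did not overlap between these stretches. ANR1 went the other way, from 4.29 ± 0.70 to 1.58 ± 0.22. NRT2.2 was the gene with a percentile under 34 in all 4 stretches. Its stretch farthest upstream holds 22 windows in a row, from −2981 to −2456, under 0.1 of the library mean in every library. Of the 61-base stretches in this run 48.9% occur more than once in the reference. What part the run had in the rank was not tested.

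**Figure D2:**
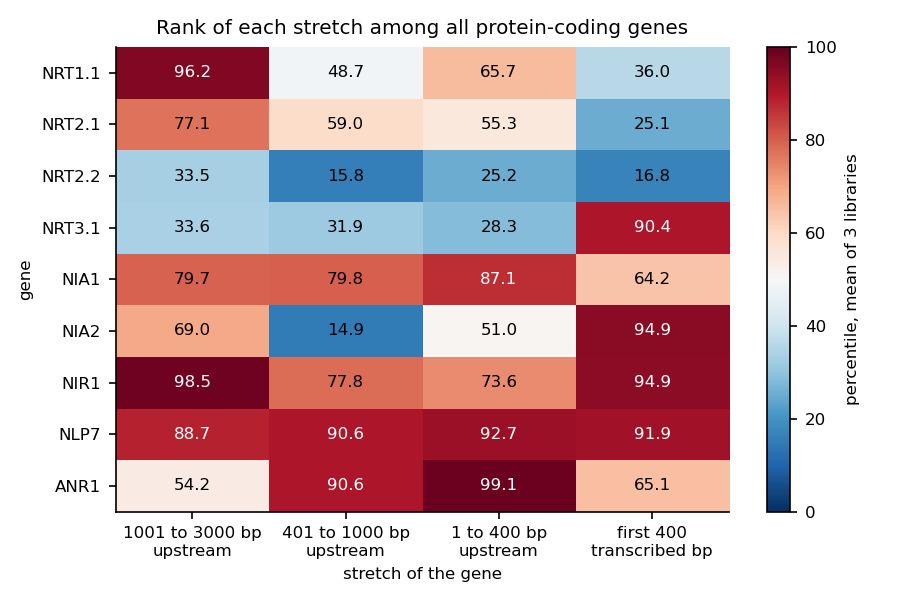
Percentile of each gene's signal among all protein-coding genes (0 to 100, mean of 3 libraries) in 4 stretches set by distance from the annotated gene start, 1 gene per row. NIR1 and NRT1.1 are highest far upstream, ANR1 just upstream of the start, and NIA2, NIR1, NLP7 and NRT3.1 in the first 400 transcribed bp.

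Sites were then placed from 3000 bp upstream of each start to 500 bp past the gene end. These 9 regions held 44 merged sites, of which 21 were shared, 5 were found in 2 libraries and 18 in 1. Of the 21 shared sites 12 had their summit upstream of the gene, 8 inside it and 1 past its end, and 9 lay more than 1000 bp upstream. They resembled the shared sites of the genome in strength, with a median enrichment over the peak caller's background of 3.12 against 3.17, and had a median width of 343 bp against 284 bp. All 9 genes had at least 1 shared site in their region, as did 68.4% of all protein-coding genes. NRT1.1 and NIR1 had 4 each, more than 95.1% of genes. A summit in the upstream promoter in all libraries was found for 1 of the 9, NIA1, against 19.8% of all genes. Without library 2 the count was 2, with NLP7 added, and the share of all genes 22.2%. By overlap in place of the summit, 4 of 9 had a site over the upstream promoter (NIA1, NIA2, NLP7 and ANR1), against 33.5% of genes. The first 400 transcribed bp held a summit in all libraries in 4 of 9 (NRT3.1, NIA2, NIR1 and NLP7), where the background was 11.9%. From 1001 to 3000 bp upstream it was 5 of 9 (NRT1.1, NRT2.1, NRT2.2, NIR1 and ANR1) with a background of 29.3%. These counts are small and were not tested.

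**Figure D3:**
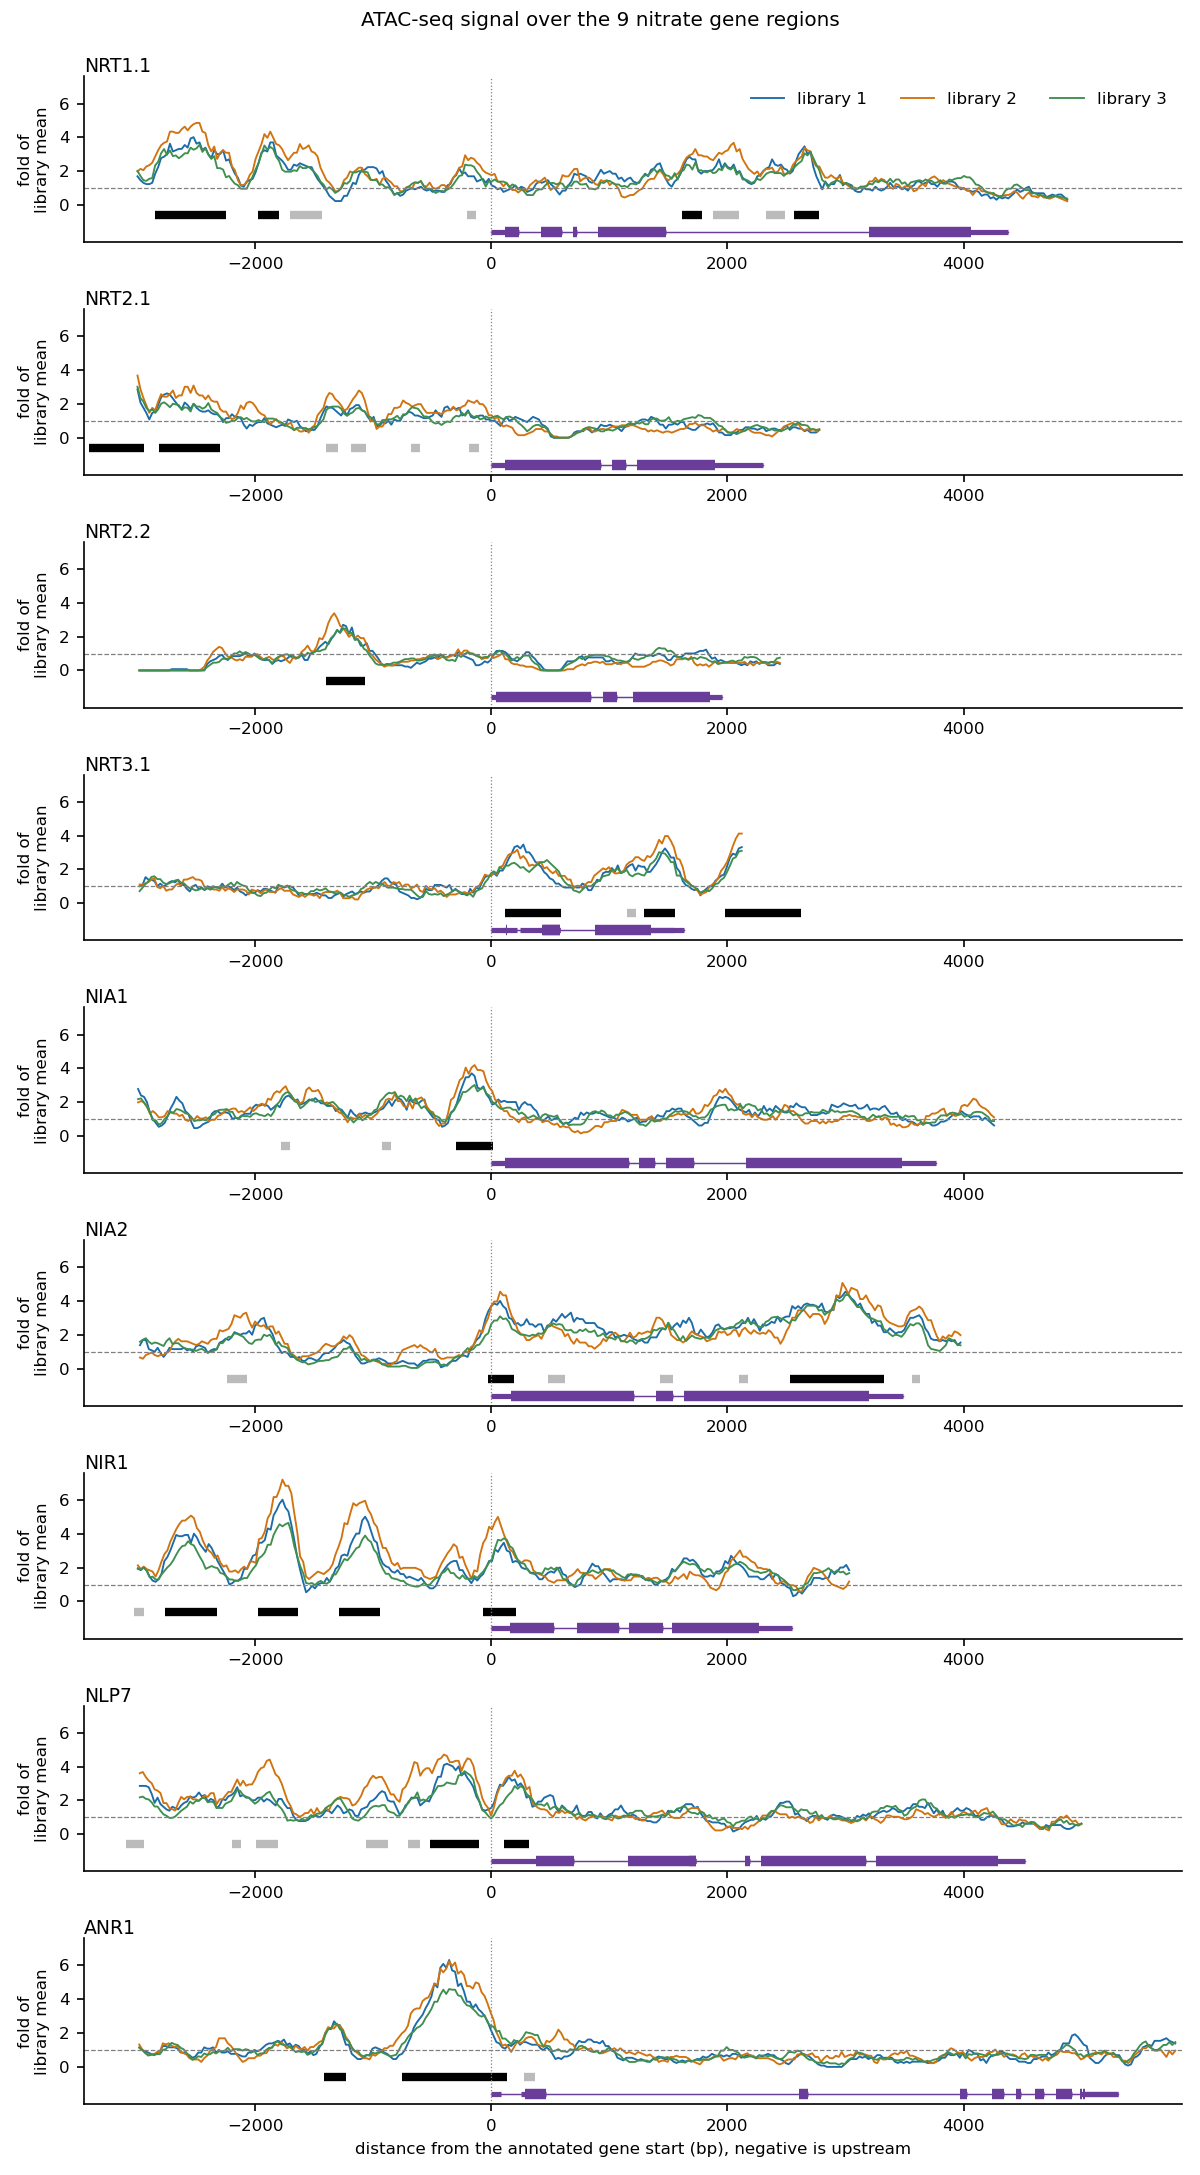
Window counts as fold of the library mean (vertical axis) against distance from the annotated gene start in bp (horizontal axis, linear), 1 gene per panel and 1 line per library. Black bars are merged sites found in all 3 libraries, grey bars sites found in 1 or 2. The purple model shows coding exons (thick), UTR exons (middle) and introns (line), and the dashed line is the library mean. NIR1 shows 3 upstream summits at 1093, 1776 and 2597 bp, and ANR1 a broad site that starts upstream and ends just past the gene start, with a weaker one farther upstream.

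NRT1.1, the dual-affinity transporter and nitrate sensor, lies at chr1:4105223-4109601 (TAIR10, plus strand), with no other gene in its region. It had 8 merged sites, the most of the 9 genes. Its shared upstream sites had summits at −2475 and −1848 bp from the gene start, with enrichments of 2.99, 3.31 and 2.84 and of 2.79, 2.94 and 2.73. Its other 2 shared sites lay in an intron, at +1684 and +2652. The introns of NRT1.1 carried 1.83 ± 0.22 and its coding exons 1.32 ± 0.096, and the libraries did not overlap. Just upstream of the start a site at −146 was called in library 3 alone, although the signal there was higher in library 2 (2.72) than in library 3 (2.32) or library 1 (1.70). The site at −1848 is printed because it holds a close pair of G-boxes, the hexamer CACGTG that bHLH and bZIP factors bind. These G-boxes are in capitals. The DNA is on the gene's strand, chr1:4103245-4103423, as are all sequences below, read from the RefSeq assembly TAIR10.1.
NRT1.1 site at −1848: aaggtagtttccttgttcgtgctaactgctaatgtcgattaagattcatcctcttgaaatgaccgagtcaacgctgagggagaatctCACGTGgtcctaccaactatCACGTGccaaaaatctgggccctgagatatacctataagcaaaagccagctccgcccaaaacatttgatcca
The G-boxes are centred at −1889 and −1869, where the signal was 3.65 ± 0.41 and 3.52 ± 0.40.

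NRT2.1 and NRT2.2, the inducible high-affinity transporters, are neighbouring copies that lie tail to tail at chr1:2524023-2526322 (plus strand) and chr1:2527170-2529120 (minus strand). NRT2.1 had the higher upstream promoter signal in all 3 libraries, with log2 ratios of 1.07, 0.99 and 0.56 (mean 0.87 ± 0.28, exact sign-flip p = 0.25, n = 3, the smallest p possible). Neither had a shared site within 1000 bp of its start. NRT2.1 had a site at −154 in library 2 alone, where the signal was 2.13 against 1.21 in library 1 and 1.28 in library 3. Its shared sites were far upstream, at −2787 and at −3209. The second of these reaches into the region from outside it. Both summits are nearer to the start of the neighbouring gene AT1G08080 (2625 and 2203 bp) than to that of NRT2.1. NRT2.2 had a single site in its whole region, at −1354, with enrichments of 4.18, 4.66 and 3.53, stronger than 88.6% of the shared sites of the genome. The strongest upstream sites of both genes are shown to compare the copies. Each printed stretch is 200 bases around the highest window of the site, and capitals mark the searched motifs, here a G-box in NRT2.1 and, read on the opposite strand, TGACG in NRT2.2.
NRT2.1 site at −3209, chr1:2520651-2520850: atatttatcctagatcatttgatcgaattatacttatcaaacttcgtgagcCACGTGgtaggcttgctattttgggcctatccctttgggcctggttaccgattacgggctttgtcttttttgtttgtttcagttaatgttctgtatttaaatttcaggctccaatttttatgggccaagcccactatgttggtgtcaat
NRT2.2 site at −1354, chr1:2530326-2530525: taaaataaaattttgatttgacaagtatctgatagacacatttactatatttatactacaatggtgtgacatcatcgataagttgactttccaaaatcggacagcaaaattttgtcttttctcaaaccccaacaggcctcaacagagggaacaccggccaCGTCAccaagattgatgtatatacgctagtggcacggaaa

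The transcribed parts of both copies were low. Coding exons of NRT2.1 had 0.689, 0.427 and 0.742 (mean 0.620 ± 0.169), and those of NRT2.2 had 0.733, 0.350 and 0.691 (mean 0.592 ± 0.210). Library 2 was the lowest for both, as it was over the coding exons of all 9 genes but NRT3.1. The alignment kept reads with a single position in the genome, and its part in these levels was not tested. Of the stretches of 61 bases, the read length, that start in the gene, 5.91% in NRT2.1 and 6.97% in NRT2.2 occur more than once in the reference. Both genes had a run of 7 windows in the coding sequence with under 0.1 of the library mean in every library, from +528 to +678 in NRT2.1 and from +444 to +594 in NRT2.2. In these runs 52.3% and 72.8% of the 61-base stretches were repeated. A longer run of 22 windows lay upstream of NRT2.2, from −2981 to −2456, mostly inside the pseudogene AT1G08105, with 48.9% repeated. No other of the 9 genes had such a run. The upstream promoters of both copies were free of such exact repeats. Leaving out windows with one therefore removed nothing there, and the ratio between the copies could not move. Stretches that match elsewhere with mismatches were not searched for.

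NRT3.1, the partner of the NRT2 transporters, lies at chr5:20436180-20437815 (plus strand). It had no site of any library upstream of its start. Its 3 shared sites were at +153 in a UTR exon, at +1479 in a UTR exon and at +2127 past the gene end. The last was wide, 645 bp, and had enrichments of 3.15, 3.73 and 3.17. It ran from +1976 to +2620, and most of it lay outside the region, which ends 500 bp past the gene end. The site at +153 began 118 bp inside the gene. Signal over the UTR exons was 2.51, 2.76 and 2.23 (mean 2.50 ± 0.27), above the introns at 1.15, 1.40 and 1.09 in every library. The transcribed sequence of these exons is not printed.

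NIA1 and NIA2, the nitrate reductase genes, differed in where their signal lay. NIA1 (chr1:29235721-29239484, minus strand) had its shared site just upstream of the start, at −99, with enrichments of 3.00, 3.48 and 2.40, and its highest window was between −167 and −142 in all 3 libraries. NIA2 (chr1:14158452-14161938, plus strand) had its site on the start itself, from −28 to +189 with the summit at +24. Upstream of it, from 401 to 1000 bp, NIA2 had the lowest mean of the 9 genes, with 0.386, 0.827 and 0.223 (0.479 ± 0.313) and library 2 apart from the others, while NIA1 had 1.68, 1.73 and 1.91. The upstream promoter of NIA1 exceeded that of NIA2 by log2 ratios of 0.79, 1.03 and 0.91 (mean 0.91 ± 0.12, exact sign-flip p = 0.25, n = 3, the smallest p possible). This difference depended on the point it was measured from. Over the 400 bp before the coding start, which lies 117 bp into NIA1 and 165 bp into NIA2, it was 0.14 ± 0.080 and NIA2 itself had 2.50 ± 0.38.

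NIA2 also carried the most signal inside the gene. Its coding exons had 2.84, 2.44 and 2.59 (mean 2.62 ± 0.20), the highest of the 9 genes, against 1.40, 0.967 and 1.25 in NIA1. A shared site of 790 bp lay at its 3′ end with the summit at +2995 in a coding exon, and the highest window of the region was there in all 3 libraries (4.55, 5.07 and 4.36). Its enrichment, 2.54, was low among shared sites, above 10.2% of them. The shared site of NIA1, which has its summit in the upstream promoter, is shown from −241 to −42. None of the searched motifs occurs in it.
NIA1 site at −99, chr1:29239526-29239725: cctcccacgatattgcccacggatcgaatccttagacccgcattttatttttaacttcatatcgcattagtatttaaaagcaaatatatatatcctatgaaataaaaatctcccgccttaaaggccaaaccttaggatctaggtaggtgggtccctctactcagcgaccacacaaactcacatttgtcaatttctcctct

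NIR1, the nitrite reductase gene (chr2:6810395-6812941, plus strand), had sites both far upstream and on its start. Its 4 shared sites had summits at −2597, −1776, −1093 and +65. The strongest was that at −1776, with enrichments of 4.74, 4.60 and 3.75, above 92.7% of the shared sites of the genome. Its highest window reached 6.02, 7.21 and 4.65 of the library mean. Signal over the 4 sites was 3.36 ± 0.66, 4.56 ± 0.93, 3.91 ± 1.04 and 3.30 ± 0.64 in order from the farthest upstream, and library 2 was the highest at each of them. The site at −2597 is nearer to the start of the gene AT2G15610 (1765 bp) than to that of NIR1, and those at −1776 and −1093 are nearer to NIR1. The strongest site is printed because it holds 2 G-boxes, in capitals, centred at −1856 and −1778, where the signal was 4.71 ± 0.95 and 5.62 ± 1.13.
NIR1 site at −1776, chr2:6808526-6808725: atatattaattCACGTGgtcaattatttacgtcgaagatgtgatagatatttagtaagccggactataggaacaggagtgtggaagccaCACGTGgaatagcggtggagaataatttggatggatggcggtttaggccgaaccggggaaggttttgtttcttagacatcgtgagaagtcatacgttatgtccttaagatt

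The letters of the nitrate-responsive cis-element were found at 2 places in the 9 regions. The element is searched here as GACCCTTNNNNNNNNNNAAG on both strands, in which N is any base. The element was first described in NIR1, so a match in that gene was given by the choice of letters. In NIR1 it was centred at +73 in the UTR exon, inside the shared site with the summit at +65. The signal there was 3.18, 4.54 and 3.53 (mean 3.75 ± 0.71). In NIA1 it was centred at −2488 on the opposite strand, in no site of any library, and the signal was 0.540, 1.05 and 0.921 (mean 0.836 ± 0.264). The libraries did not overlap between these places. Both matches are printed with the fixed letters in capitals, that of NIA1 on the strand opposite to the gene so that the letters align.
NIR1 match, chr2:6810459-6810478: GACCCTTtacattgctcAAG
NIA1 match, chr1:29241963-29241982: GACCCTTtttgatatatAAG
Of the 20186 shared sites of the genome 8 held this motif within 200 bp windows centred on their summit (0.0396%), and 19 of the 27444 genes had it in the 1000 bp upstream (0.0692%). The shorter form CTTNNNNNNNNNNAAG, which the longer one contains, was far more frequent, in 6.20% of shared sites and in 2 of the 21 here, NIR1 at −2597 and at +65.

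NLP7, the regulator that binds this element, lies at chr4:12479528-12484049 (plus strand), with no other gene in its region. It was the gene with high signal in all 4 stretches, between the 88.7 and the 92.7 percentile. It had 2 shared sites on either side of its start, at −194 and at +252 in a UTR exon, with a dip between them that falls on the annotated start. Its upstream site was 417 bp wide, from −523 to −107, with enrichments of 3.22, 3.13 and 3.31. Of the other 5 sites, all upstream, 2 were found in libraries 2 and 3, 2 in library 2 alone and 1 in library 3 alone. From 401 to 1000 bp upstream the libraries were 2.21, 3.40 and 1.92, with library 2 well above the other two. Introns had 0.976, 0.789 and 0.994 and were at about the genome mean. Part of the upstream site is printed as promoter sequence of the factor itself. The stretch runs from −477 to −278 around the highest window and does not include the summit at −194. None of the searched motifs occurs in this stretch.
NLP7 site at −194, chr4:12479051-12479250: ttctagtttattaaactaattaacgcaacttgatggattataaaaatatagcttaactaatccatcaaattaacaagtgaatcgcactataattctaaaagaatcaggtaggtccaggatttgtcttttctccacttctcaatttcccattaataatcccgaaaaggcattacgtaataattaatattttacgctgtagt

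ANR1, the MADS-box factor of lateral root growth, lies at chr2:6018558-6023863 (plus strand). Its upstream site was the strongest and the widest of the 21, from −756 to +134, with enrichments of 6.02, 5.77 and 4.85, above 98.9% of the shared sites of the genome. The highest window was centred at −357 in all 3 libraries (6.32, 6.25 and 4.61). The summits that the peak caller reported fell at different points of this broad site, so that a summit within 400 bp of the start was recorded in library 2 alone. A weaker shared site lay at −1380 (3.18, 2.93 and 3.25). Its introns were the lowest of the 9 genes apart from those of NRT2.2 and close to those of NRT2.1, at 0.612, 0.718 and 0.656. The coding start of ANR1 is 283 bp inside the gene, and over the 400 bp before it the signal was 2.09 ± 0.23, in place of the 4.29 ± 0.70 before the gene start. The peak is printed around its highest window, with a G-box in capitals centred at −334, where the signal was 5.48 ± 0.84.
ANR1 site at −439, chr2:6018101-6018300: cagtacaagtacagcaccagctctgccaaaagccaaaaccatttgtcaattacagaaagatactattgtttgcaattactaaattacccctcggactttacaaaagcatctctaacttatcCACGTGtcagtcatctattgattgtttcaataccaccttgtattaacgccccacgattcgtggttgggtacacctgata

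Motifs were counted in the 200 bp around the summit of each site, on both strands. The G-box was present at 3 of the 21 shared sites of these genes (NRT1.1 at −1848 and +2652, NIR1 at −1776) and at 11.8% of all shared sites. The G-boxes of ANR1 and of NRT2.1 at −3209 lie in their sites but outside this window. TGACG, the core bound by TGA1 and TGA4, bZIP factors of the nitrate response, was present at 4 of 21 and at 23.5% of all. GAATATTC, a palindrome bound by the nitrate-induced repressors of the HRS1 and HHO family, was present at none of the 21 and at 0.897% of all. In the 9 regions the 14 G-boxes varied in signal from 1.01 ± 0.22, at −1022 of NRT2.2, to 5.62 ± 1.13 in NIR1. A match of letters is a description and not evidence of binding.

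Other genes of nitrate transport, assimilation and regulation (46, named from general knowledge of the pathway) served as the setting. A summit in the upstream promoter in all libraries was found for 9 of 46, against 19.8% of all genes. Without library 1 it was 15 of 46, against 25.7%. The first 400 transcribed bp held one in 15 of 46 (11.9% of all genes) and the stretch from 1001 to 3000 bp upstream in 25 of 46 (29.3%). By role, the 23 regulators had a median upstream promoter signal of 2.30 ± 0.23, the 11 enzymes 1.75 ± 0.41 and the 12 transporters 1.18 ± 0.15, and a summit there was found for 7, 2 and 0. Regulators were thus above transporters in every library, as for the 9 genes, with no test made. The highest 3 were LBD37 (5.36 ± 0.66), LBD38 (4.48 ± 0.93) and HHO3 (3.79 ± 0.44), all repressors of nitrate-response genes. The lowest 3 were NRT2.5 (0.504 ± 0.065), NRT2.6 (0.785 ± 0.068) and GLN2 (0.821 ± 0.142), the plastid glutamine synthetase. A shared site anywhere in the region was present in 42 of 46, against 68.4% of all genes, and the 4 without were the transporters NRT1.8, NRT2.3, NRT2.4 and NRT2.7.

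**Figure D4:**
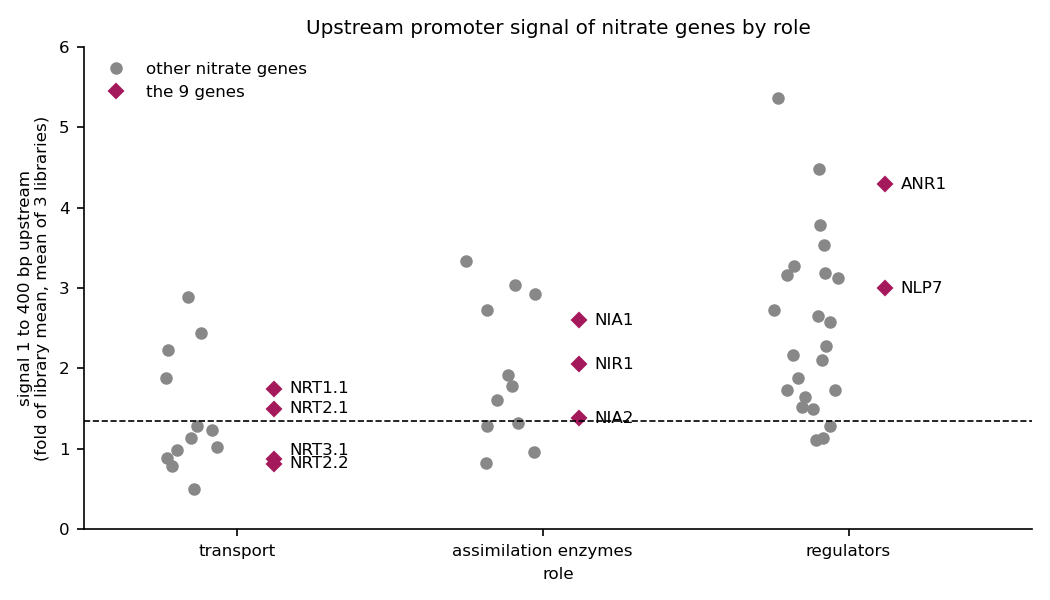
Signal over the 400 bp upstream of the gene start (fold of the library mean, mean of 3 libraries) for the 46 other nitrate genes (grey points, spread sideways to be seen) and the 9 genes (diamonds, named), by role. The dashed line is the mean over libraries of the median of all protein-coding genes, 1.34. Regulators reach 5.36 while transporters and their partner NRT3.1 stay under 3.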

How the data were processed

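ATAC-seq was performed on INTACT-purified nuclei of Arabidopsis roots in 3 libraries of 1 group. The authors aligned single-end reads of 61 bases to TAIR10 with bowtie, kept uniquely placed reads, removed duplicates with SAMtools and called peaks in each library with MACS2. Tool versions are not given in the sources used here, nor whether counted reads were shifted to the Tn5 cut. The authors deposited raw read counts over windows of 100 bp every 25 bp, which were not scaled. The deposited peak lists give a score (not used), the summit's fold enrichment over background, which is a ratio, and p-values and q-values as −log10. Reads were estimated from the counts, since 1 read enters 6.27, 6.34 or 6.28 windows on average.

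Window counts were divided by the library mean over the 5 nuclear chromosomes, windows at 0 included. Peaks were merged from an overlap of 1 bp. Gene starts, exons and sequences came from RefSeq TAIR10.1, and no window of the files passed the end of its chromosomes. Genes were compared within libraries by an exact sign-flip permutation test, two-sided. Stretches of 61 bases that occur more than once were found in the reference. Motifs were searched on both strands. The measures were checked on simulated data. Python 3.11.15, numpy 2.4.6, scipy 1.17.1 and matplotlib 3.10.9 were used. The alternatives were another promoter width, the coding start, a −log10 q of at least 5, other rules for overlap and merging, other scaling, unique windows, a pseudocount of 1, a minimum mean count of 1 and leaving out each library.

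The members and lists were chosen with earlier results of these data known. Named were the 9 genes and their shared sites, sites of fewer libraries with a summit in an upstream promoter, and of the other nitrate genes the 3 highest, the 3 lowest and those without a shared site. Printed sequences were chosen after their values were seen. The study calls the libraries biological repeats made from unequal amounts of nuclei. The labels do not give these amounts, which were not modelled.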

Additional observations from a re-analysis of the deposited data

How the results depend on the processing

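Of 112 values recomputed, 23 moved and 0 reversed. Among those of single genes 9 of 63 moved. From the coding start the order of the genes also changed, with NLP7 and ANR1 below NIA1, NIR1 and NIA2 by their means. A signal or percentile counted as moved past 1 SD over libraries and a count past 1.5 times. A tested ratio counted as moved if it changed direction or side of the threshold. None changed direction, and none could change side because p cannot fall under 0.25. A ratio that changed in size alone was thus not counted. Unique windows left the promoter values of the single genes as they were, so the tally includes alternatives with no effect. The count of the 9 genes with an upstream promoter summit in all libraries was 1, and became 3 with 1000 bp of promoter, 4 from the coding start, 4 by overlap and 0 with a −log10 q of at least 5. It ranged from 1 to 2 when a library was left out. The count of other nitrate genes (9) became 21 with 1000 bp and 14 by overlap, and ranged from 9 to 15 when a library was left out. The share of all genes was 19.8% by summit and 33.5% by overlap. For 1000 bp, the coding start, the stricter q and without library 3 no share of all genes is given. Changes of the counts under those rules therefore have no background and are not a result about these genes. The 44 merged sites became 27 with a −log10 q of at least 5, and ranged from 36 to 44 when a library was left out. The median promoter signal (1.75) became 1.40 with 1000 bp, 2.09 from the coding start and 1.29 scaled to the median promoter of all genes, and the median percentile (65.7) became 57.2 with 1000 bp and 76.5 from the coding start. Neither ratio between paralogues changed sign, but that of NIA1 to NIA2 (0.91) was 0.14 from the coding start and 1.37 with 1000 bp. The ratio of NRT2.1 to NRT2.2 ranged from 0.77 to 1.03 and that of NIA1 to NIA2 from 0.85 to 0.97 when a library was left out. With 3 libraries an exact test cannot pass 0.05, and no depth would change that. No paired analysis was possible because there is no second group whose libraries could be paired (genes were compared within libraries).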
